A study of Saccharomyces cerevisiae with 12 samples.

Results

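Broad SUMO peaks were the stretches of chromatin, 1000 bp or longer, that SUMO ChIP-seq of budding yeast returned as a single peak. They were chosen by their width alone: every peak of the 6 deposited lists on chromosomes I to XVI whose end minus start was 1000 bp or more. Of 3462 nuclear peaks, 249 met this rule and 3213 were narrower. Merged across lists wherever they overlapped by 1 bp or more, the 249 peaks formed 114 broad loci. Chromatin carrying Smt3, as SUMO is called in yeast, had been immunoprecipitated with the y-84 antibody from 3 groups with 2 replicates each, and peaks had been called for each library against its own input. All cultures were of the W303a background and were in mid-log growth at 30 °C in SC medium. The first group, ubc9-6 untreated, carried repeated copies of ubc9-1 in tandem at the UBC9 locus, which lowers the activity of Ubc9, the SUMO-conjugating enzyme of yeast. The second, WT heat shock, was WT moved to 37 °C for 12 min. The third, WT untreated, was WT in normal growth. The study's methods describe the replicates of WT and ubc9-6 untreated as independent, and the sources used here do not say so of WT heat shock.

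The content of the lists went against 2 of these labels. Genes of the heat-shock response, such as HSP104, HSP82 and BTN2, lay under broad peaks in both ubc9-6-labelled lists and under no peak of that kind in the heat-shock-labelled lists or in WT untreated. The lists are therefore called "ubc9-6-labelled" and "heat-shock-labelled" throughout, and a direction drawn from either rests on a label that the data do not bear out. The codes in the names of the deposited lists differ from these 2 labels as well, so the labels may be exchanged with each other. They were kept as given, and the exchange itself was not tested.

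As background, SUMO is a small protein that Ubc9 attaches to lysines of other proteins, and many of its targets in yeast are transcription and chromatin factors. Formaldehyde crosslinking and immunoprecipitation with an Smt3 antibody recover the DNA under any sumoylated protein, whichever protein that is. SUMO is known in yeast chromatin at tRNA genes, which RNA polymerase III (RNAPIII) transcribes with TFIIIC and TFIIIB, and at promoters of ribosomal protein genes (RPGs), which Rap1 binds. A narrow peak has about the length of the sheared fragments on both sides of one site. A broad peak has enrichment along a longer stretch. Coding sequences of strongly transcribed genes are covered by elongating RNA polymerase II (RNAPII) and the factors that travel with it.

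Sequences from the RefSeq copy of the sacCer3 genome are shown for places under broad peaks. The summit of a peak is its position of highest enrichment. The first pair are the tRNA genes of chrXIV:631535-633025, the single locus outside the rDNA array that was broad in all 6 lists. The proline tRNA gene SUF10 lies at chrXIV:631846-631917 on the minus strand and the asparagine tRNA gene YNCN0017W at chrXIV:632599-632672 on the plus strand. The summit lay beside SUF10, at 631930, in replicate 1 labelled heat shock. In the other lists it lay beside YNCN0017W, at 632581 to 632587. Each is printed 5′ to 3′ on its own strand, with the B box, the internal promoter element that TFIIIC recognizes, in capitals.
SUF10: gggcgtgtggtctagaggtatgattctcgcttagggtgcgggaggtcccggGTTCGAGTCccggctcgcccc
YNCN0017W: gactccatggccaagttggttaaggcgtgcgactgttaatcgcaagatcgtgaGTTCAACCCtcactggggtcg
The other 4 are 141-base windows centred on the summit of the widest broad peak at a protein-coding gene, on the strand of that gene. Capitals mark TATA elements (TATA, then A or T, A, A or T, and A or G, on either strand) and the core of a heat-shock element (GAANNTTC or TTCNNGAA). TDH3, at chrVII:883815-883955 on the minus strand, and PDC1, at chrXII:234096-234236 on the minus strand, are examples from glycolysis and ethanol formation. HSP82, at chrXVI:98650-98790 on the minus strand, and KAR2, at chrX:381219-381359 on the plus strand, are examples from the chaperone genes. Windows of the same kind at other covered genes differed in these motifs. PGK1, ENO2, TPI1 and CDC19 held 0 TATA elements, as did HSP104, HSC82, SSA2, BTN2, MBF1 and SSC1. ADH1 and HSP26 held 1, and SSA1 and HSP42 held 2. Of all windows named here, only those of HSP82 and HSC82 held a heat-shock element core.
TDH3: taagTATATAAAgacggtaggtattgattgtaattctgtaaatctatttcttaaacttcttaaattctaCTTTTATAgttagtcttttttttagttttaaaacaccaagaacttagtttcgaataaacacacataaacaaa
PDC1: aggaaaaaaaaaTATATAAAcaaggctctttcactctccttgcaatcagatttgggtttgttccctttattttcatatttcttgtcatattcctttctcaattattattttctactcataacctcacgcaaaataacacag
HSP82: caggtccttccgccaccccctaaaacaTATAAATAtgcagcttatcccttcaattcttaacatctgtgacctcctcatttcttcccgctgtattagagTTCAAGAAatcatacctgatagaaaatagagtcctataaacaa
KAR2: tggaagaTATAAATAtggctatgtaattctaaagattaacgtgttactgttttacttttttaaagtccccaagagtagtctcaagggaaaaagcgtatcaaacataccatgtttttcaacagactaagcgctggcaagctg

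The number of broad peaks differed as much between replicates as between groups. The ubc9-6-labelled lists held 50 broad peaks of 600 (8.33%) in replicate 1 and 80 of 709 (11.3%) in replicate 2. The heat-shock-labelled lists held 6 of 278 (2.16%) and 3 of 319 (0.940%). The WT untreated lists held 25 of 714 (3.50%) and 85 of 842 (10.1%). The heat-shock-labelled lists were low in both replicates and did not overlap the other groups, whereas the ubc9-6-labelled lists lay between the WT untreated pair. The mean was 65.0 ± 21.2 broad peaks in the ubc9-6-labelled lists and 55.0 ± 42.4 in WT untreated (SD, n = 2 each), a difference of 10 with an exact permutation p of 1.00 (two-sided). The mean was 4.50 ± 2.12 in the heat-shock-labelled lists, 50.5 fewer than in WT untreated, with an exact permutation p of 0.33, the smallest that 2 lists against 2 can give.

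Broad peaks took a larger share of the bases inside peaks in the 3 lists with 50 or more of them than in the others. This is a share of called length, not of reads, and it grows with the number of broad peaks. In the ubc9-6-labelled lists broad peaks held 24.0% and 28.8% of all bases inside peaks, in the heat-shock-labelled lists 11.3% and 8.40%, and in WT untreated 11.7% and 25.8%. Median widths of the broad peaks were 1370.5 and 1336 bp in the ubc9-6-labelled lists, 1910 and 5117 bp in the heat-shock-labelled lists, and 1262 and 1356 bp in WT untreated, against a median of 458 to 602 bp over all peaks of a list. Outside the rDNA array they were 1357 and 1318 bp, 1067.5 and 1121 bp, and 1251.5 and 1350.5 bp in the same order. The heat-shock-labelled lists held only 2 and 1 broad peaks outside the array. Only 49 peaks were 2000 bp or wider. The threshold fell in a continuous slope, with 69 peaks in the 100 bp just below it and 43 in the 100 bp from it upward. The narrowest member was 1003 bp, a piece of the rDNA array labelled heat shock, and the widest peak left out was 997 bp, at the same place in the other replicate.

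**Figure D1:**
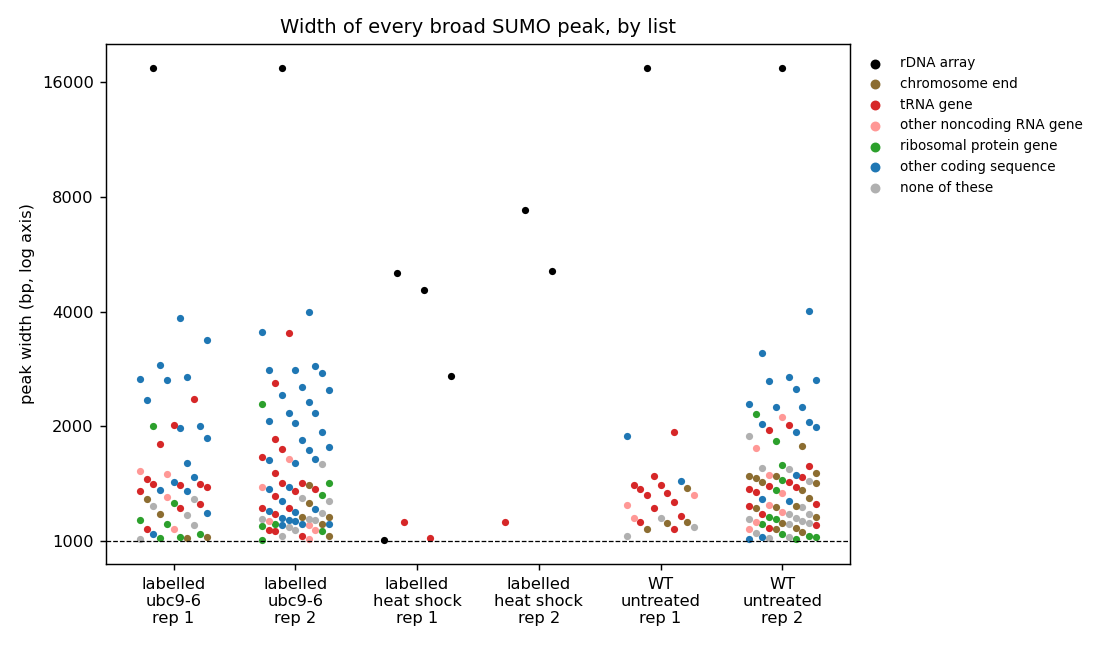
Width in bp, on a log axis, of each of the 249 broad peaks, one point per peak, for the 6 lists, coloured by genomic class, with the dashed line at 1000 bp. The peaks of 17443 to 17479 bp in 4 lists are the rDNA array, the widest others (blue) cover coding sequences, and the heat-shock-labelled lists hold 9 points in all.

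The peak caller's fold enrichment and p-value together fix the fragments counted at a summit, and 3445 of 3462 summits (99.5%) gave a value within 0.05 of a whole number. The 5th percentile of the local background at the summits, a measure of depth, was 114 to 140 fragments in the 6 lists. Median summit counts in broad peaks were 545 and 480 fragments in the ubc9-6-labelled lists and 944 and 665 in WT untreated, against 590 and 747, and 721 and 726, in the narrower peaks of the same lists. In the heat-shock-labelled lists they were 7139 and 7235, where 4 of 6 and 2 of 3 broad peaks were rDNA, against 576 and 737. Median fold enrichment over the local background was 4.34 and 3.17 for broad peaks in the ubc9-6-labelled lists, 1.16 and 1.14 in the heat-shock-labelled lists, and 7.68 and 5.14 in WT untreated. In the narrower peaks it was 4.48 and 4.79, 4.66 and 6.07, and 5.84 and 4.68. Ranked by q-value from the strongest peak down, the median broad peak stood at 53.3% and 57.8% of the list in those labelled ubc9-6, 85.8% and 87.1% in the heat-shock-labelled ones, and 33.2% and 49.8% in WT untreated.

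What the broad peaks covered was sorted into 7 exclusive classes, in the order rDNA array, chromosome end (within 20000 bp), tRNA gene inside the peak, other noncoding RNA gene, RPG, other coding sequence covered by 50% or more, and none of these. Of the 249 broad peaks, 70 (28.1%) covered another coding sequence, 58 (23.3%) held a tRNA gene, 31 (12.4%) lay at a chromosome end, 26 (10.4%) were at RPGs, 21 (8.43%) held another noncoding RNA gene, 10 (4.02%) were rDNA and 33 (13.3%) were none of these. Among the 3213 narrower peaks, 46.6% held a tRNA gene, 14.3% were at RPGs and 1.90% covered another coding sequence. Covering a long coding sequence needs a wide peak, so the share of that class follows from the choice of members and is a description. Of all peaks that covered another coding sequence, 60.7% and 56.9% were broad in the ubc9-6-labelled lists, and 13.3% and 60.0% in WT untreated. The heat-shock-labelled lists held no such peak of any width.

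**Figure D2:**
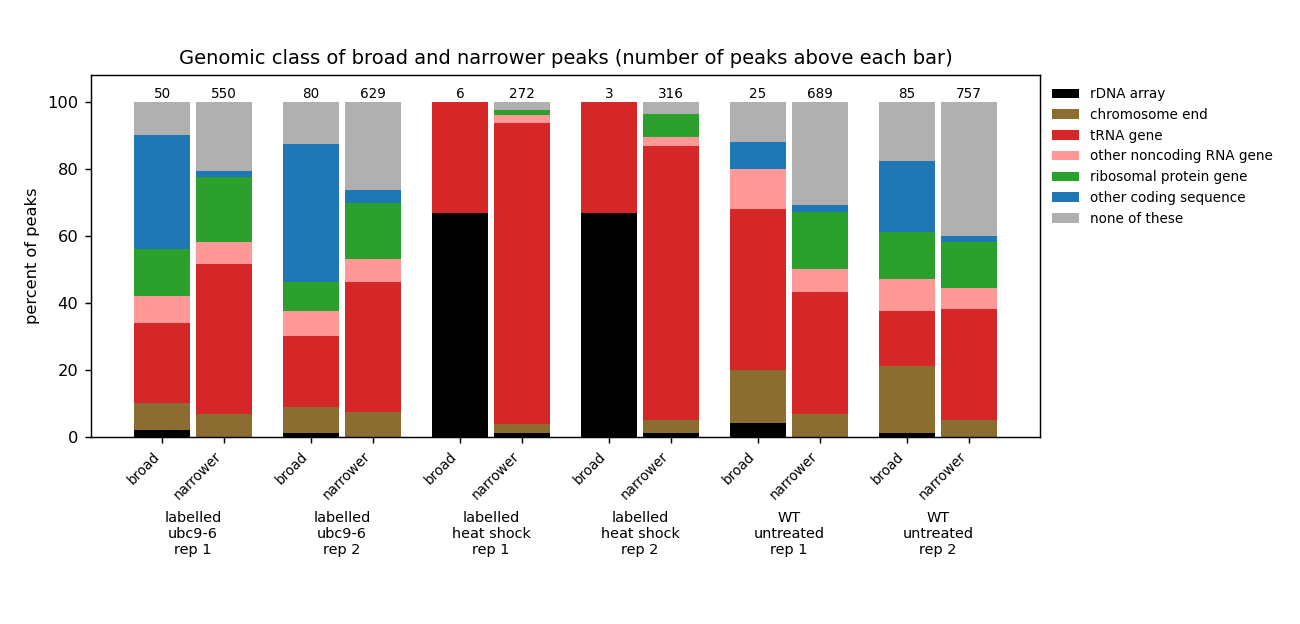
Share in percent of the peaks of each list in 7 exclusive genomic classes, for broad peaks (left bar of each pair) and narrower peaks (right bar), with the number of peaks above each bar. Other coding sequences (blue) take 34.0% and 41.2% of the broad peaks in the ubc9-6-labelled lists and 8% and 21.2% in WT untreated, and the broad peaks labelled heat shock are rDNA and tRNA loci.

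Among the metabolic gene lists, glycolysis had the largest share of covered genes. A gene was counted as covered when 50% or more of its coding sequence lay inside 1 broad peak. By that count 63 of 6002 nuclear protein-coding genes (1.05%) were covered in at least 1 of the ubc9-6-labelled lists, 1 (0.0167%) in at least 1 of the heat-shock-labelled lists and 50 (0.833%) in at least 1 list of WT untreated. Per list the counts were 37 and 60 in those labelled ubc9-6 (0.616% and 1.00% of all genes), 1 and 1 in the heat-shock-labelled ones, and 11 and 50 in WT untreated (0.183% and 0.833%). Short coding sequences are covered more readily. Covered genes had median lengths of 576 and 610.5 bp in the ubc9-6-labelled lists and 315 and 453 bp in WT untreated. The median over all genes was 1194 bp. In all, 76 genes were covered in at least 1 list, of which 37 were covered both in a list labelled ubc9-6 and in WT untreated, 26 in ubc9-6-labelled lists alone and 13 in WT untreated alone. Of 17 glycolytic genes, 7 were covered in the ubc9-6-labelled lists, 0 in the heat-shock-labelled ones and 5 in WT untreated. The lists of genes used here were drawn up with results of these data known, and the members were chosen by width, so the counts describe the peaks and test nothing.

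TDH3, the main glyceraldehyde-3-phosphate dehydrogenase, at chrVII:882812-883810, was the most constant of them. One peak of 1866 and 1934 bp covered 100% of its coding sequence in the ubc9-6-labelled lists, and one of 1882 and 1936 bp did so in WT untreated. No peak of a list labelled heat shock touched the gene. Relative to the start codon, with upstream negative, the summit lay at -98 and -80 bp in the ubc9-6-labelled lists and at -83 and -75 bp in WT untreated, in the window printed above with its pair of TATA elements, and the peak ended 494 to 539 bp past the stop codon.

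The other glycolytic genes were covered in 3 lists or fewer, and replicate 1 of WT untreated held narrower peaks at each of them. PGK1 (phosphoglycerate kinase) lay under peaks of 1997 and 2162 bp in the ubc9-6-labelled lists and of 510 and 2031 bp in WT untreated. ENO2 (enolase) lay under peaks of 1980 and 2037 bp in the ubc9-6-labelled lists and 490 and 2052 bp in WT untreated. TPI1 (triose phosphate isomerase) showed 1351 and 1382 bp, against 472 and 1484 bp in WT untreated. For CDC19 (pyruvate kinase) the widest peaks were 920 and 2529 bp in the ubc9-6-labelled lists, and 878 and 2700 bp in WT untreated. FBA1 (aldolase) and GPM1 (phosphoglycerate mutase) were covered in the ubc9-6-labelled lists and not in WT untreated. The FBA1 peaks were 1597 and 1603 bp in the ubc9-6-labelled lists, and the widest of WT untreated were 514 and 724 bp. At GPM1 the widths were 1357 and 1636 bp, against 815 and 853 bp. Peaks of any width nevertheless held 69.6% of FBA1 and 53.8% of GPM1 in replicate 2 of WT untreated.

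The step from pyruvate to ethanol was covered at PDC1 (pyruvate decarboxylase) and ADH1 (alcohol dehydrogenase). Of the 11 genes of the ethanol and acetate list, 1 and 1 were covered in the ubc9-6-labelled lists, 0 and 0 in the heat-shock-labelled ones, and 0 and 2 in WT untreated, beside 0.616% and 1.00%, 0.0167% and 0.0167%, and 0.183% and 0.833% of all genes. PDC1 peaks were 2345 and 2806 bp in the ubc9-6-labelled lists and 924 and 3104 bp in WT untreated. The ADH1 peak was broad in replicate 2 of WT untreated alone (2292 bp), with widest peaks of 560 and 879 bp in the ubc9-6-labelled lists and 358 bp in the other WT untreated replicate. Fold enrichment at PDC1 was 2.91 and 3.24 in the ubc9-6-labelled lists and 6.74 and 8.47 in WT untreated. The scale is set within each library, so these values were not tested against each other.

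Covered genes were also found in the lists for translation elongation, the cell surface, nutrient transport and amino acid synthesis. PMA1, the plasma membrane proton pump and the longest covered gene with 2757 bp, lay under peaks of 3844 and 3978 bp in the ubc9-6-labelled lists and of 4023 bp in replicate 2 of WT untreated. In replicate 1 of WT untreated the same stretch held 4 separate peaks, the widest of 872 bp, over 41.3% of the coding sequence. The fold enrichment of these PMA1 peaks was low, at 1.36 and 1.99 in the ubc9-6-labelled lists and 2.96 and 2.60 in WT untreated. TEF2, for translation elongation factor eEF1A, had peaks of 1428 and 2416 bp in the ubc9-6-labelled lists and of 856 and 2506 bp in WT untreated. TEF1 is a near-identical copy of TEF2, so reads may have been split between them, and peaks held 57.7% and 68.6% of TEF1 in the ubc9-6-labelled lists and 12.4% and 75.3% in WT untreated, without a broad peak over 50% of it. GAP1, the general amino acid permease, had peaks of 1233 and 2492 bp in the ubc9-6-labelled lists and of 456 and 2623 bp in WT untreated. ILV5, for branched-chain amino acid synthesis, had 481 and 1734 bp, against 912 and 2249 bp in WT untreated. CCW12, a cell wall mannoprotein, was covered by 100% in both ubc9-6-labelled lists and in replicate 2 of WT untreated, and by 53.2% inside peaks in replicate 1. Of the 19 genes of the mating list and the 18 of the nucleotide synthesis list, 0 were covered in any list, and with at most 1.05% of all genes covered nothing can be read from lists of this size.

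**Figure D3:**
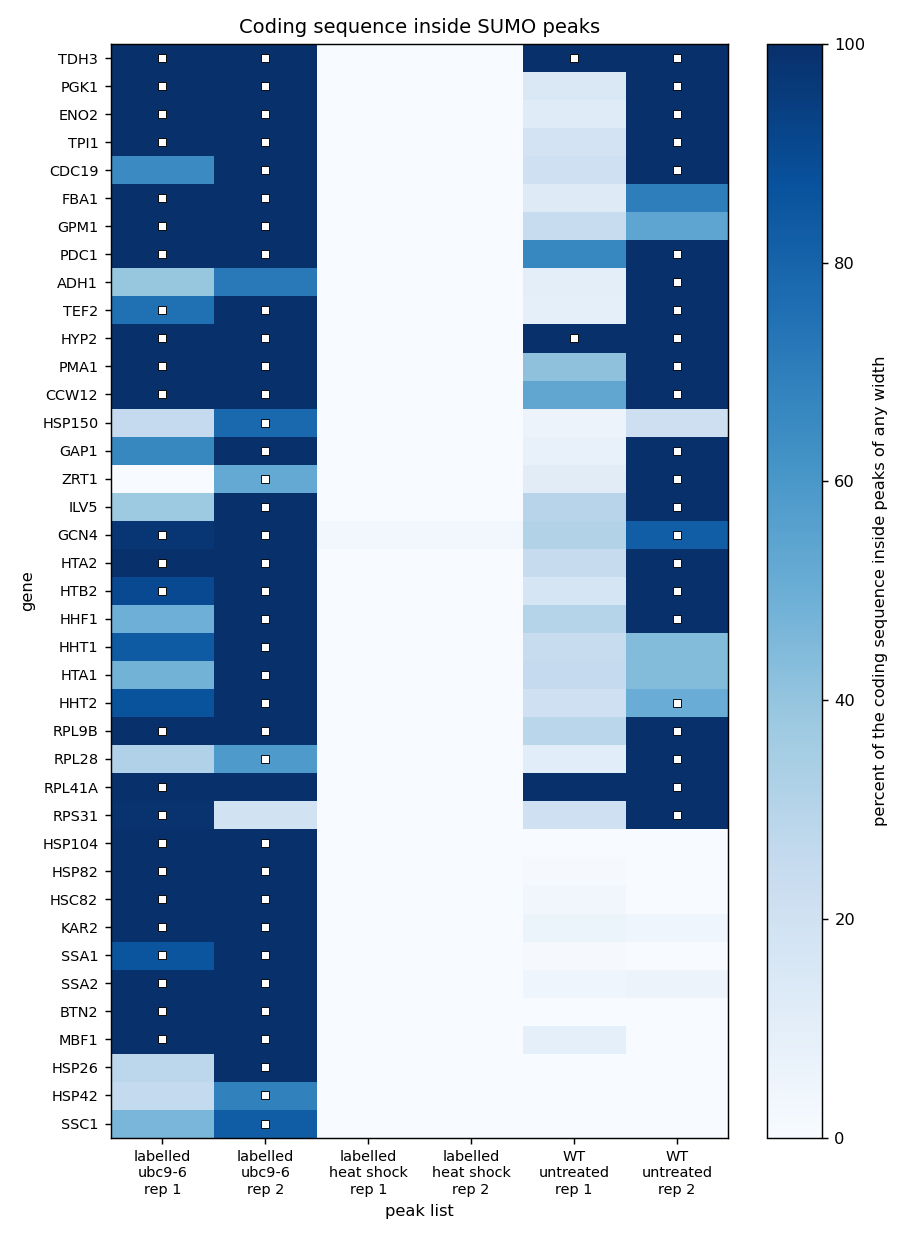
Percent of the coding sequence inside peaks of any width (colour, 0 to 100) for 39 covered genes (rows) in the 6 lists (columns), with a white square where 1 broad peak held 50% or more of it. TDH3 is filled in 4 lists, most metabolic and histone genes are pale in WT untreated replicate 1, and the 11 heat-shock genes at the bottom are filled only in the ubc9-6-labelled lists.

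Chaperone and other heat-shock genes were covered by broad peaks in the ubc9-6-labelled lists and in no other list. Of 38 genes of the heat-shock list, 8 and 11 were covered in the ubc9-6-labelled lists, 0 and 0 in the heat-shock-labelled lists, and 0 and 0 in WT untreated. In the ubc9-6-labelled lists this is 11 of 38 genes, beside 1.05% of all genes. HSP104, the disaggregase, showed the contrast most plainly. Peaks of 3366 and 3534 bp ran over all of its 2727 bp coding sequence in the ubc9-6-labelled lists, at chrXII:88144-91677, and none of the 4 other lists had a peak of any width there.

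The Hsp90 pair behaved in the same manner. HSP82, the inducible Hsp90 gene, lay under peaks of 2893 and 2875 bp in the ubc9-6-labelled lists, with fold enrichments of 3.41 and 3.58, against a single 213 bp peak in replicate 1 of WT untreated and none in replicate 2. HSC82, the constitutive Hsp90 gene, lay under peaks of 2648 and 2814 bp, against a 300 bp peak in replicate 1 of WT untreated and none in replicate 2. The 2 genes are close copies, and their peaks extended past both ends of the coding sequence. In the Hsp70 family, SSA2 had peaks of 2691 and 2314 bp in the ubc9-6-labelled lists and 496 and 321 bp in WT untreated, and KAR2, the Hsp70 of the endoplasmic reticulum, had 2665 and 2763 bp, against 351 and 240.0 bp. MBF1, a transcriptional coactivator, had 1039 and 1124 bp, against 304 bp and no peak. HSP26, HSP42 and SSC1 were broad in replicate 2 labelled ubc9-6 alone (1194, 1106 and 1628 bp), with narrower peaks in replicate 1 and none in the heat-shock-labelled lists or WT untreated.

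SSA1 and BTN2 were covered together with a neighbouring tRNA gene. At BTN2, an aggregate-sorting chaperone gene next to the alanine tRNA gene YNCG0034W, one peak of 2351 and 2592 bp held both genes in the ubc9-6-labelled lists. Peaks of 517 and 569 bp in the heat-shock-labelled lists, and of 569 and 607 bp in WT untreated, stood over the tRNA gene and held 0% of BTN2. The summit remained near the tRNA gene in the broad peaks, 1880 and 1878 bp from the start codon of BTN2. At SSA1 and the proline tRNA gene TRN1, the widest peaks were 2014 and 3507 bp in the ubc9-6-labelled lists, 459 and 342 bp in the heat-shock-labelled lists, and 885 and 599 bp in WT untreated.

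In all, 13 loci were broad in both ubc9-6-labelled lists and in no other list: the 8 loci of these chaperone and heat-shock genes, GPM1, FBA1, the RPG loci of RPL30 and RPL22B, and a region near RMD1. WT untreated had 1 such locus, the proline tRNA gene YNCN0011W (1262 and 1251 bp, against 684 and 644 bp in the ubc9-6-labelled lists and 576 and 523 bp in the heat-shock-labelled ones), and the heat-shock-labelled lists had 0.

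Core histone genes were also covered by broad peaks. Broad peaks lay at each of the 4 divergent pairs of core histone genes, HTA2-HTB2, HHT1-HHF1, HTA1-HTB1 and HHT2-HHF2, in at least 1 list, and they covered 2 and 6 of the 8 genes in the ubc9-6-labelled lists, 0 in the heat-shock-labelled ones, and 0 and 4 in WT untreated, beside 0.616% and 1.00%, 0.0167% and 0.0167%, and 0.183% and 0.833% of all genes. Histone coding sequences are short (399 bp for HTA2, 411 bp for HHT1 and 312 bp for HHF1), so a broad peak on a pair covers them readily. The shares of all genes are not matched for length. HTA2-HTB2 lay under peaks of 1474 and 2167 bp in the ubc9-6-labelled lists and of 2636 bp in replicate 2 of WT untreated. In replicate 1 of WT untreated a narrower peak held 24.3% of HTA2 and 17.2% of HTB2, and the broad peak of 1438 bp at the same locus stood over the neighbouring gene ECM15. At HHT1-HHF1, named like HHT2-HHF2 after its values were seen, they were 531 and 2063 bp, against 839 and 1269 bp. Copies of the histone genes are similar in sequence, so the placement of reads inside them is uncertain.

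Over coding sequences the broad peaks ran past both ends of the gene with the summit close to the start codon. Among the 70 broad peaks of the class, the summit lay upstream of the start codon of the longest covered gene in 52, within the coding sequence in 12 and beyond the stop codon in 6. The median summit position was -59.5 bp from the start codon (quartiles -97.2 and 3.5 bp). The peaks began a median of 359 bp before the start codon and ended a median of 398 bp past the stop codon, and 59 of the 70 held the whole coding sequence. SSA2 was an exception, with summits 401 and 441 bp inside the gene in the ubc9-6-labelled lists, and at PMA1 the summit of replicate 2 labelled ubc9-6 was 2227 bp in, against -172 bp in replicate 1. Peak width went with the length of the gene: Pearson's r was 0.96 over 17 peaks and 0.77 over 33 peaks in the ubc9-6-labelled lists, and 0.81 over 18 peaks in replicate 2 of WT untreated. The peaks of a list share 1 library, and a peak was placed in this class because it covered the gene, so these values are descriptions.

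**Figure D4:**
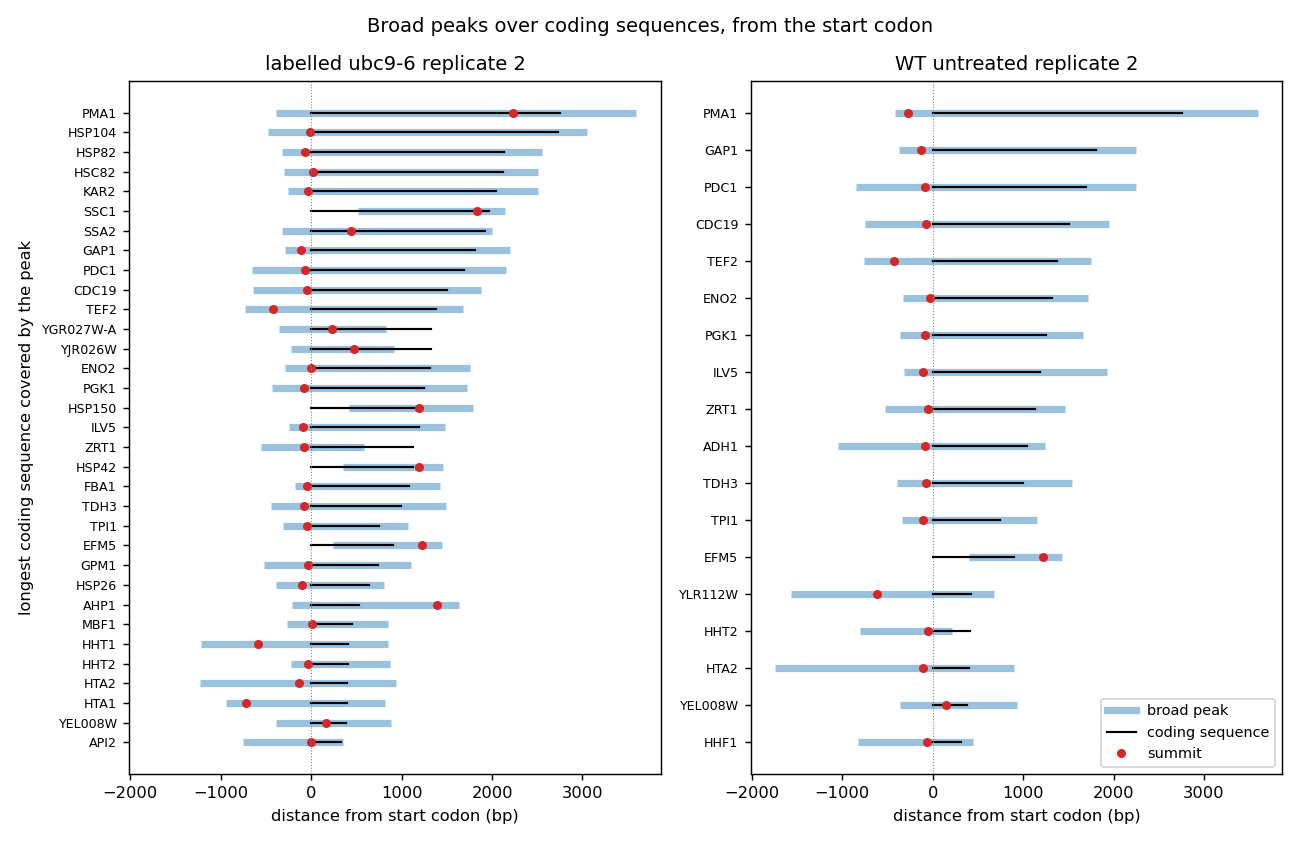
Broad peaks that covered a coding sequence (blue bars), with the start-to-stop span of the longest covered gene (black lines) and the summit (red dots), as distance in bp from the start codon, for replicate 2 labelled ubc9-6 (33 peaks) and replicate 2 of WT untreated (18 peaks). Most summits sit just left of 0 and the bars end beyond the stop codon, with exceptions such as SSC1, HSP42 and EFM5, whose bars start inside the gene (EFM5 was chosen after its values were seen).

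TATA elements were common at these summits. Within 150 bp of the summit, a TATA element was found in 15 of 17 and 20 of 33 broad peaks over other coding sequences in the ubc9-6-labelled lists (88.2% and 60.6%) and in 1 of 2 and 15 of 18 in WT untreated (50% and 83.3%). Windows of the same 301 bp before the start codons of all 6002 genes held one in 41.1%. Over all broad peaks the shares were 50% and 42.5% in the ubc9-6-labelled lists, 0% and 0% in the heat-shock-labelled lists, and 40.0% and 51.8% in WT untreated, against 39.8% and 39.6%, 37.9% and 35.4%, and 45.9% and 41.0% in the narrower peaks. The core of a heat-shock element was found at 16% and 12.5% of the broad summits in the ubc9-6-labelled lists, 33.3% and 0% in the heat-shock-labelled ones and 8% and 15.3% in WT untreated, against 23.5% to 25.6% in the narrower peaks of the 6 lists and 22.5% of the gene windows. Within 500 bp before the start codon, 10 of the 11 covered heat-shock genes and 20 of the 27 that were not covered held that core, against 35.2% of all genes. A Rap1 site with at most 2 mismatches stood at 24.0% and 22.5% of the broad summits in the ubc9-6-labelled lists, 0% and 0% in the heat-shock-labelled ones, and 20% and 29.4% in WT untreated, and in 7.95% of the gene windows. In the narrower peaks it stood at 21.5% and 20.3%, 6.62% and 9.49%, and 21.0% and 18.2%. The pheromone response element TGAAACA stood at 6.00% and 2.50% of the broad summits in the ubc9-6-labelled lists, 0% and 0% in the heat-shock-labelled ones, and 8% and 3.53% in WT untreated, against 8.56% to 12.9% in the narrower peaks and 7.2% of the gene windows. All motifs were searched on both strands. None of these shares was tested, and a match is not evidence of binding.

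Broad peaks covered 9 RPGs in all. Of the 137 RPGs, 3 and 3 were covered in the ubc9-6-labelled lists, 0 and 0 in the heat-shock-labelled ones, and 0 and 8 in WT untreated, beside 0.616% and 1.00%, 0.0167% and 0.0167%, and 0.183% and 0.833% of all genes. RPL9B, for a protein of the large subunit, was the widest, with peaks of 1996 and 2280 bp in the ubc9-6-labelled lists and of 935 and 2156 bp in WT untreated. RPL28 had peaks of 1258 and 1318 bp in the ubc9-6-labelled lists and of 790.0 and 1831 bp in WT untreated. The median summit of the 16 RPG peaks that covered a coding sequence was at -257 bp from the start codon of the longest covered gene, against -59.5 bp over other coding sequences. That gene was not always the RPG itself. A peak was classed at an RPG by a summit from 800 bp before to 100 bp after its start codon, or by covering 50% or more of it. Summit position was thus part of the choice, and the difference is a description that was not tested.

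Broad tRNA loci were the ones shared most widely among the lists. A tRNA gene lay in 19 of the 114 broad loci. All 19 had a peak in both lists of every group, which no other class of more than 1 locus showed, but most were narrower than 1000 bp in the heat-shock-labelled lists. Narrower tRNA peaks were also about equally many in every list: 247 and 244 labelled ubc9-6, 245 and 258 labelled heat shock, and 252 and 250 in WT untreated. How many of those were shared among all lists was not counted. At SUF10 and YNCN0017W, whose sequences are printed above, the peaks were 1409 and 1414 bp in the ubc9-6-labelled lists, 1117 and 1121 bp in the heat-shock-labelled lists, and 1365 and 1391 bp in WT untreated, with fold enrichments of 6.60 and 7.22, 4.90 and 8.35, and 13.5 and 17.4. The alanine tRNA gene TGA1, at chrI:166267-166339, came next, with 1351 and 1369 bp, 1018 and 956 bp, and 1319 and 1388 bp.

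At the other tRNA loci the peak was shorter in the heat-shock-labelled lists. YNCE0005W, a serine tRNA gene, had peaks of 1790.0 and 1854 bp in the ubc9-6-labelled lists, 249 and 422 bp in the heat-shock-labelled lists, and 1933 and 1959 bp in WT untreated. The WT untreated and ubc9-6 labelled peaks also covered HYP2, for translation factor eIF5A, and MTC7 next to it. At YNCD0020W, a glycine tRNA gene, the widths were 1413 and 1422 bp, 786 and 704 bp, and 1398 and 1467 bp. TRR4, an arginine tRNA gene, showed 1075 and 1060 bp, 554 and 610.0 bp, and 1119 and 1103 bp, with fold enrichments of 9.40 and 11.7, 11.5 and 17.3, and 14.5 and 26.1. The fold enrichments labelled heat shock at TRR4 lay within the range of the other lists, though the peaks there were narrower. A long terminal repeat or Ty element, the retrotransposon sequences that insert beside tRNA genes, lay in 75% and 76.5% of the broad tRNA peaks in the ubc9-6-labelled lists, in all 3 of the heat-shock-labelled ones, and in 83.3% and 78.6% in WT untreated, against 51.0% to 52.4% of the narrower tRNA peaks of the 6 lists. A longer peak has more room for such an element, and 2 of the 19 loci held more than 1 tRNA gene. Copies of tRNA genes and repeats are near-identical, so the position of peaks there is uncertain.

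Other noncoding RNA genes gave 9 broad loci. SNR17A, for the U3 small nucleolar RNA, had peaks of 1529 and 1640 bp in the ubc9-6-labelled lists and 1149 and 1754 bp in WT untreated, with fold enrichments of 8.42 and 11.3, and 14.6 and 22.8. RPR1, the RNase P RNA, had 1071 and 1069 bp in the ubc9-6-labelled lists and 951 and 1120 bp in WT untreated. The cluster of 7 small nucleolar RNA genes SNR72 to SNR78 was broad in replicate 1 labelled ubc9-6 (1302 bp) and in replicate 2 of WT untreated (2112 bp). None of the 9 loci had a peak in both heat-shock-labelled lists. SCR1, the RNA of the signal recognition particle, shared its merged locus with the isoleucine tRNA gene YNCE0025C. The broad peak of replicate 2 labelled ubc9-6 there (1217 bp) began at chrV:442966, on the side of the tRNA gene, with a separate narrower peak at the same locus, and replicate 2 of WT untreated had a broad peak of 2016 bp. RPR1, the SNR72 to SNR78 cluster and SCR1 were chosen after their values were seen.

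The rDNA array on chromosome XII gave the widest peaks of all. A single peak of 17443 and 17459 bp in the ubc9-6-labelled lists, and of 17453 and 17479 bp in WT untreated, ran over both annotated copies of the repeat, chrXII:451437-468915. In the heat-shock-labelled lists the array was broken into 7 and 6 pieces, the widest of 5053 and 7381 bp. The highest fold enrichment in the array was 4.72 and 5.55 in the ubc9-6-labelled lists, 1.24 and 1.42 in the heat-shock-labelled lists, and 4.25 and 6.25 in WT untreated. The reference holds few copies of a repeat that is present in many, and its background in the caller is high, so neither the position nor the width of these peaks can be set. Of the broad peaks labelled heat shock, 4 of 6 and 2 of 3 were pieces of it. TAR1, a gene annotated inside the array, was the 1 gene covered in those lists.

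Chromosome ends gave 17 broad loci, of which 14 held an annotated telomeric region. All 17 were broad in WT untreated, 4 peaks in replicate 1 and 17 in replicate 2, and 6 of them were broad in a list labelled ubc9-6. All 17 had a peak of some width in both ubc9-6-labelled lists, and 14 had none in either list labelled heat shock. The left end of chromosome III, chrIII:28-1493, was broad in 4 lists, with 1287 and 1398 bp in the ubc9-6-labelled lists and 1372 and 1466 bp in WT untreated. In replicate 2 of WT untreated the same arm held 3 further broad peaks, at YCL068C (1418 bp), next to HMLALPHA1 of the silent mating cassette HML (1157 bp) and at CHA1 (1116 bp). Fold enrichment at these 4 places was 14.9, 5.36, 5.98 and 4.34 in replicate 2 of WT untreated. The 3 further places were chosen after their values were seen. Subtelomeric sequence is repeated between chromosomes, so reads there may have been shared among ends.

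The remaining 17 loci fell in none of the classes. Examples are the loci near RMD1 (1290.0 and 1295 bp in the ubc9-6-labelled lists, 679 and 844 bp in WT untreated) and near YLR001C (1008 and 1593 bp, against 1148 and 1553 bp in WT untreated). Replicate 2 of WT untreated held 28 loci that were broad in no other list, and 5 of these met no peak at all in the other 5 lists. They had fold enrichments of 1.44 to 1.73 and lay near ADR1, ESP1, FAS1, SMM1 and the Ty gene YML039W, named here after their values were seen.

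Broad peaks were found again in the other replicate, but often as narrower peaks. A peak of any width overlapped 50 of 50 and 79 of 80 broad peaks in the ubc9-6-labelled lists, 6 of 6 and 3 of 3 in the heat-shock-labelled ones, and 25 of 25 and 79 of 85 in WT untreated. For the narrower peaks the shares were 98.4% and 80.0%, 98.9% and 85.8%, and 95.8% and 77%. The share was higher for broad peaks in 6 of 6 lists, by a mean of 9.32 percentage points (98.6% ± 2.82 for broad and 89.3% ± 9.66 for narrower peaks, SD over 6 lists). The exact sign-flip permutation p was 0.031 (two-sided), the smallest that 6 lists can give. After Benjamini-Hochberg adjustment over the 4 comparisons of this kind it was 0.0625, so the difference did not pass 0.05. Among the 4 is the width of the partner, which follows from the choice by width, and counting it made this adjusted p lower. The 2 lists of a group serve as each other's partner and are not independent here. A long interval also overlaps another more readily. With overlap required over 50% of both peaks the difference turned to -0.574 points, with an exact sign-flip p of 0.938. With peaks under a fold enrichment of 2 left out it was 0.100 points (p = 0.938), and with those under a −log10 q of 10 left out 2.94 points (p = 0.469), both from the exact sign-flip test.

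The width of the partner is given as a description, because the members were chosen by width in all 6 lists and the lists of a group are each other's partners. Its median width was 1549.5 and 1039 bp for broad peaks of the ubc9-6-labelled lists, 3119 and 4546 bp for the heat-shock-labelled ones, and 1430.0 and 851 bp for WT untreated. For narrower peaks the partner's median width was 624 and 554 bp, 510.0 and 457 bp, and 626.5 and 542 bp. The broad peaks had the wider partner in 6 of 6 lists, by a mean of 1537 bp. With the rDNA array and chromosome ends left out it was 620.3 bp, again in 6 of 6 lists. The threshold itself was met less well. The partner was also broad for 45 of 50 (90%) and 44 of 80 (55.0%) broad peaks of the ubc9-6-labelled lists, for 4 of 6 and 3 of 3 of the heat-shock-labelled ones, and for 24 of 25 (96.0%) and 24 of 85 (28.2%) of WT untreated. Among narrower peaks it was broad for 8% and 0.954%, 0% and 0.633%, and 11.5% and 0.264%.

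Replicate 2 held more broad peaks than replicate 1 in the ubc9-6-labelled lists and in WT untreated. Of the 61 loci broad in replicate 2 of WT untreated alone, 55 had a narrower peak in replicate 1, 19 of them 2 or more. In the ubc9-6-labelled lists, 35 of 36 such loci had a narrower peak in replicate 1. Where both replicates were broad, 38 of 45 pairs labelled ubc9-6 and 20 of 24 pairs of WT untreated were wider in replicate 2, but so were 407 of 498 and 503 of 581 pairs in which both were narrower. The 5th percentile of the local background was 125 and 140 fragments in replicates 1 and 2 labelled ubc9-6 and 117 and 124 in WT untreated, so this measure of depth was higher in the list with more broad peaks of both groups, and its part in the widths was not tested. Summits of paired broad peaks lay a median of 10 bp apart in the ubc9-6-labelled lists and 9 bp apart in WT untreated, close to the 7 bp of paired narrower peaks in both groups. Fewer broad pairs than narrower ones had summits within 50 bp, however: 35 of 45 (77.8%) against 93.0% labelled ubc9-6, and 20 of 24 (83.3%) against 92.6% in WT untreated. Starts of broad pairs differed by a median of 51.0 and 22.5 bp and ends by 73.0 and 64 bp in these 2 groups. The 4 broad pairs labelled heat shock had summits a median of 334 bp apart, against 2 bp for narrower pairs.

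Summits of broad peaks fell inside coding sequences about as often as those of narrower ones. The shares were 10% and 15% in broad peaks of the ubc9-6-labelled lists, 0% and 0% in the heat-shock-labelled ones, and 8% and 14.1% in WT untreated, and in narrower peaks 8.36% and 12.4%, 2.94% and 4.11%, and 5.37% and 12.8%. The mean difference was 0.186 percentage points, with an exact sign-flip permutation p of 0.938 and an adjusted p of 0.938. The difference was above 0 in all 4 ubc9-6-labelled lists or WT untreated and below 0 in both labelled heat shock, which held 9 broad peaks in all. Wilson 95% intervals of the broad shares were wide, for example 4.35% to 21.4% for 5 of 50 peaks in replicate 1 labelled ubc9-6, and 0% to 39.0% for 0 of 6 peaks in replicate 1 labelled heat shock, and they cover counting error only.

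**Figure D5:**
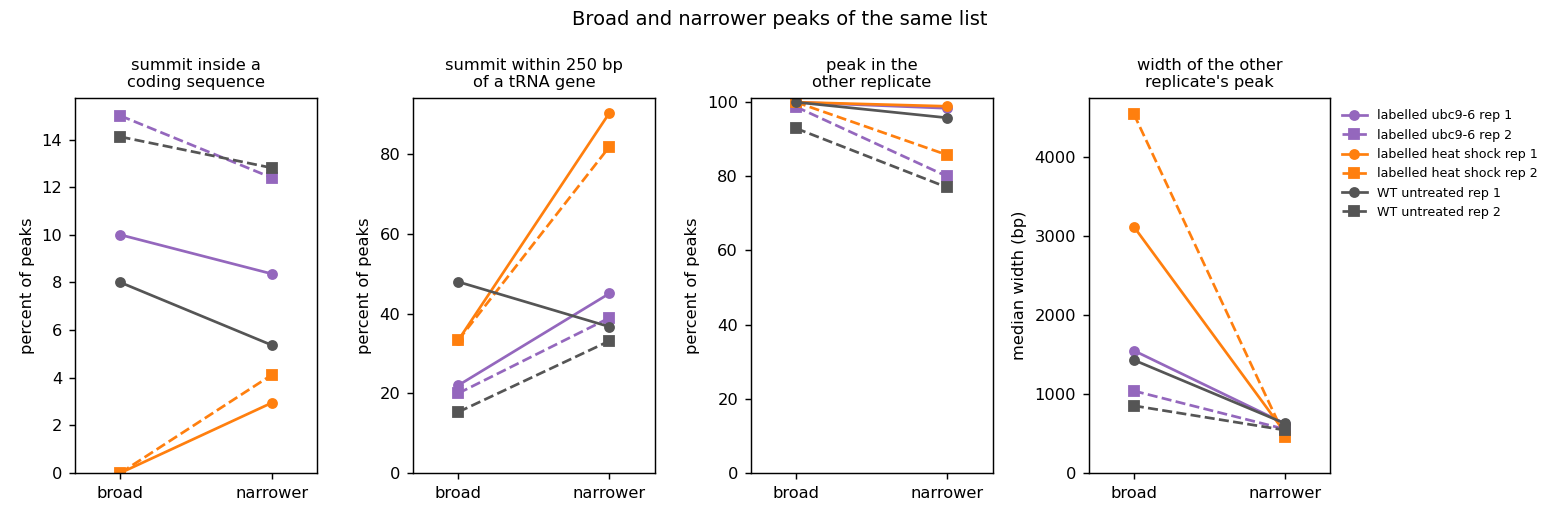
Broad peaks (left) against narrower peaks (right) of the same list, joined by a line for each of the 6 lists, for the percent of summits inside a coding sequence, the percent within 250 bp of a tRNA gene, the percent with a peak in the other replicate and the median width in bp of that peak. The lines run down in the last 2 panels in 6 of 6 lists, and in the tRNA panel replicate 1 of WT untreated is the 1 list whose line runs down.

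Fewer broad summits than narrower ones lay within 250 bp of a tRNA gene in 5 of 6 lists. The shares were 22.0% and 20% of broad peaks in the ubc9-6-labelled lists, against 45.1% and 39.0% of narrower ones. In the heat-shock-labelled lists they were 33.3% and 33.3%, against 90.4% and 82.0%. In WT untreated they were 48.0% and 15.3%, against 36.7% and 33.2%, so replicate 1 of WT untreated went the other way. The mean difference was -25.7 percentage points, with an exact sign-flip permutation p of 0.0625 and an adjusted p of 0.0833. Counting the width of the partner in the adjustment made this adjusted p lower as well. Without the rDNA array and chromosome ends it was -2.97 points (exact sign-flip p = 0.719).

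Broad peaks were also lopsided and richer in G and C. The farther edge lay a median of 1071.5 and 1012.5 bp from the summit in the ubc9-6-labelled lists, and 962 and 986 bp in WT untreated, against 302.5 and 332.5 bp, and 313 and 357 bp, for the nearer edge. In narrower peaks the farther edge was a median of 300 to 327 bp away in those 4 lists and the nearer edge 230.0 to 247 bp. A wide peak must have its farther edge far from the summit, so the contrast in that edge follows in part from the choice by width. The median GC content of broad peaks was 38.4% and 38.6% in the ubc9-6-labelled lists, 40.6% and 43.4% in the heat-shock-labelled lists, and 38.7% and 38.8% in WT untreated. Narrower peaks had 36.0% and 36.3%, 35.8% and 36.0%, and 35.8% and 36.0%, and the nuclear genome 38.3%. Of the broad peaks labelled heat shock, 4 of 6 and 2 of 3 were rDNA. Around the summit, within 150 bp, the broad and narrower peaks of the ubc9-6-labelled lists and of WT untreated lay within 36.5% to 37.5%.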

How the data were processed

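SUMO ChIP-seq of 6 immunoprecipitates (12 samples with their 6 inputs) was analysed from the deposited peak lists. Alignment by the authors used Bowtie2 2.3.5 on paired reads, against sacCer3. MACS2 2.1.1.20160309 then gave narrow peaks library by library, each with its own input, below a q-value of 0.05. The deposited fold enrichment is a ratio at the summit over the local background, with a pseudocount of 1, and the deposited p-value and q-value are on the −log10 scale. The placement of reads that match repeats equally well is not given in the sources used here.

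Titles gave the groups, and a list belongs to the sample under which it was deposited. Members, gene lists and comparisons were chosen with earlier results of these data known. Genes came from the RefSeq annotation of the same assembly, in which no peak ends beyond a chromosome. Loci named were the 30 broad in most lists, up to 15 widest that were broad in both lists of 1 group alone, those with the 10 widest peaks and the covered members of 9 gene lists. The few others named are marked in the text as chosen after their values were seen. The order of classes was also set after seeing the data.

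Numbers of broad peaks were compared by an exact permutation test (2 lists against 2, smallest p 0.33). Broad peaks were compared with narrower ones by an exact two-sided sign-flip test over 6 lists (smallest p 0.031), adjusted by Benjamini-Hochberg over 4. Of these 4, the width of the partner follows from the choice by width and is given with no p. This width stayed in the adjustment, which made the adjusted p of the partner and tRNA shares lower. A list left out of a comparison still served as partner of its replicate. Shares have Wilson 95% intervals. No per-read counts were used. Fragments at each summit were recovered from fold enrichment and p-value. This step was tested on data simulated with the same formula that it inverts. The simulated backgrounds were far below those of the rDNA array, so the counts there were not tested. Analyses ran in Python 3.11.15 with numpy 2.4.6 and scipy 1.17.1.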

Additional observations from a re-analysis of the deposited data

Results flagged for a closer look

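The difference between broad and narrower peaks in the share of summits inside coding sequences was below 0 in both lists labelled heat shock, at -2.94 and -4.11 percentage points, and above 0 in all 4 lists labelled ubc9-6 or WT untreated (1.64, 2.60, 2.63 and 1.3 points). The difference between the groups was not tested, and the lists labelled heat shock held 6 and 3 broad peaks.

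Replicate 1 labelled heat shock also held 24 mitochondrial peaks, which the members leave out, and the other 5 lists held 0. They were 211 to 1647 bp wide, with fold enrichments of 1.07 to 1.47, and 1 of them reached 1000 bp.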

How the results depend on the processing

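The number of broad peaks labelled ubc9-6 minus WT untreated was 10 and turned to -20.0 with broad peaks taken from 800 bp. It ranged from -20.0 to 40.0 with 1 list left out. It was negative without replicate 2 labelled ubc9-6 (-5.00) and without replicate 1 of WT untreated (-20.0). The number labelled heat shock minus WT untreated was negative under all 13 alternatives (-125 to -12.5 peaks, and -5.25 percentage points as a share of the list). Some of these could not change it: the ubc9-6-labelled lists do not enter this difference, and leaving out either left it at -50.5. With a replicate block, pairing lists of the same number, the differences were again 10 and -50.5, with exact sign-flip p of 1.00 and 0.5, the smallest that 2 pairs can give. The labels do not say that a number marks a shared culture or day.

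For the share of summits in coding sequences (0.186 points) leaving out 1 list gave -0.303 to 1.05, negative for each list labelled ubc9-6 or WT untreated. The share with a partner turned to -0.574 points with overlap over 50% of both peaks. With broad peaks taken from 1500 bp the tRNA share (-40.2 points) and the partner share (9.01 points) passed 0.05, each with an adjusted p of 0.0417 from the exact sign-flip test. The partner's width, a description, differed by 2643 bp, and counting it in the adjustment made both adjusted p lower. From 1500 bp upward the heat-shock-labelled lists held rDNA pieces alone, since their widest other peaks were 1117 and 1121 bp. Replicate 1 of WT untreated held only peaks of 1882, 1933 and 17453 bp. These passes therefore rest on very few peaks in those lists. With 1 list left out no p can fall below 0.0625. Over only the 4 lists of WT untreated and labelled ubc9-6, chosen after seeing the data, the 4 differences were 2.04, -12.2 and 10.1 points and 630.8 bp, where no p can fall below 0.125.

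Genes covered averaged 48.5 in the lists labelled ubc9-6, 1.00 in those labelled heat shock and 30.5 in WT untreated. Counting any base of the coding sequence gave 95.5, 1.5 and 74.0, and broad peaks from 1500 bp gave 31.5, 1.00 and 19.5. With 1 list left out, an alternative added after seeing the data, WT untreated had 11 or 50 and the lists labelled ubc9-6 had 37 or 60.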
